A study of Mus musculus with 6 samples.

Results

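The C-type lectin receptors that myeloid cells use to recognise microbial and damaged-cell material were followed in mouse heart after myocardial infarction (MI). The 9 genes were taken by symbol from a table of 38293 genes: Clec4e, Clec4d, Clec4n, Clec4a1, Clec4a2, Clec4a3, Clec5a, Clec7a and Clec12a. The set was chosen by the p-value of Clec4e between the genotypes in these same libraries (unadjusted p = 0.00288, rank 8 of 14746 genes tested, adjusted p = 0.957, edgeR), so the genotype differences of the 9 genes are given here as a description, without a test. The study asked what loss of the transcription factor ZEB2 from cardiomyocytes does to the infarcted heart, and RNA-seq was performed on 3 WT and 3 Zeb2 cKO hearts. WT is the name in the sample labels for mice with both Zeb2 alleles floxed and no Cre recombinase (Zeb2 fl/fl), and Zeb2 cKO mice carry the same floxed alleles with Cre driven by the Myh6 promoter, which is active in cardiomyocytes. All mice were adult males of a line backcrossed to C57BL/6J, and in all of them the left anterior descending coronary artery had been occluded permanently 14 days before collection. The labels place the tissue at the border of the infarct, whereas the methods of the study name the remote zone. The control mice carry no Cre, so an effect of Cre itself and an effect of the deletion cannot be told apart, and Cre under this promoter leaves Zeb2 in place in myeloid cells.

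C-type lectin receptors carry a carbohydrate-recognition fold outside the cell and pass the signal on through short tyrosine motifs. Clec4e (Mincle), Clec4d (MCL) and Clec4n (Dectin-2) rely on the adaptor FcRγ, encoded by Fcer1g, whereas Clec5a (MDL-1) pairs with the adaptor encoded by Tyrobp, and Clec7a (Dectin-1) has an activating motif of its own. These activating receptors engage the kinase Syk and then the Card9, Bcl10 and Malt1 complex, which leads to NF-κB activity and cytokine production. Clec4a2 (DCIR) and Clec12a (MICL) carry inhibitory motifs that recruit phosphatases, and Clec4a1 and Clec4a3 are close relatives of Clec4a2. In injured tissue, Mincle is known as a sensor of material released by dying cells, and it is found mainly on macrophages, monocytes and neutrophils.

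All 9 genes lie on mouse chromosome 6 (GRCm38), 6 of them in a cluster. In that cluster, Clec4a1 (ENSMUSG00000049037, plus strand, 122921848 to 122934619) is followed by Clec4a3 (ENSMUSG00000043832, plus strand, 122952515 to 122969875), Clec4a2 (ENSMUSG00000030148, plus strand, 123106428 to 123143999), Clec4n (ENSMUSG00000023349, plus strand, 123229843 to 123247021), Clec4d (ENSMUSG00000030144, plus strand, 123262111 to 123275265) and Clec4e (ENSMUSG00000030142, minus strand, 123281789 to 123289870). Clec4d and Clec4e are therefore neighbours that point towards each other, with 6523 bases between their annotated ends. Clec12a (ENSMUSG00000053063, plus strand, 129342691 to 129365303) and Clec7a (ENSMUSG00000079293, minus strand, 129461591 to 129472779) lie 6053 kb further on, and Clec5a (ENSMUSG00000029915, minus strand, 40574894 to 40585821) lies far from the others. The annotation lists Clec7a as a polymorphic pseudogene and the other 8 genes as protein coding.

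The bases before the transcription start are shown for the convergent neighbours Clec4e and Clec4d, which turned out to be the only members whose groups did not overlap, and for Clec12a, the only other member with a motif searched for. The sequences are the 250 bases upstream of the RefSeq start (GRCm38.p6), written 5′ to 3′ on the strand of the gene, at chr6:123289872-123290121 (minus strand) for Clec4e, chr6:123261857-123262106 (plus strand) for Clec4d and chr6:129349994-129350243 (plus strand) for Clec12a. Capitals mark matches to a C/EBP motif or an AP-1 motif.
Clec4e: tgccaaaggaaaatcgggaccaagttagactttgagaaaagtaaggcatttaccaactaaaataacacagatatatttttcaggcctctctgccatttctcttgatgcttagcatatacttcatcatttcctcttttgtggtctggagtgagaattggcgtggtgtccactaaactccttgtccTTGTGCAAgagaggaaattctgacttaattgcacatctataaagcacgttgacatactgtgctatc
Clec4d: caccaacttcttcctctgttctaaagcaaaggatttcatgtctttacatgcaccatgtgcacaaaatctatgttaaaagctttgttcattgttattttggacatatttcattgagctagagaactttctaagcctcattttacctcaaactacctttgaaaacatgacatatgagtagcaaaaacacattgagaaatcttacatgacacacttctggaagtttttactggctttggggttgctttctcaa
Clec12a: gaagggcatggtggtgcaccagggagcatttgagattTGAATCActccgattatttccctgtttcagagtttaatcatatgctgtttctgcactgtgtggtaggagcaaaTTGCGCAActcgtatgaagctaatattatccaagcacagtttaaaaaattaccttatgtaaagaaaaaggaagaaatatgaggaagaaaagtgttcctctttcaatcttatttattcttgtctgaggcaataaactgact
Of the 9 members, 8 had a promoter in the RefSeq table, and Clec4n had no entry. A C/EBP motif (TTGCNNAA, both strands) was found in 2 of the 8, at 66 bases before the start of Clec4e and at 140 bases before the start of Clec12a, and 9.56% of 32851 promoters hold it in the same window. An AP-1 motif (TGANTCA, both strands) was found in Clec12a alone, against 6.75% of all promoters. An E-box of the type that ZEB proteins are known to bind (CAGGTG, both strands) was found in 0 of the 8, against 17.2% of all promoters, and a PU.1 core (AGGAAGT, both strands) in 0 of the 8, against 7.69%. A match is a string of letters and no measured binding, and a promoter without one says nothing about the factor.

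Libraries held between 37.3 M and 51.1 M counts, of which between 14.3 M and 19.0 M lay outside the mitochondrially encoded genes. CPM denotes a count divided by the TMM-normalised size of its library in M counts, and libraries are listed in the order WT 1, 2, 3 and Zeb2 cKO 1, 2, 3. Zeb2 itself was at 61.3, 116 and 71.9 CPM in WT and at 59.6, 72.6 and 66.5 CPM in Zeb2 cKO (log2 fold change -0.33, SE 0.25). Without WT 2 its log2 fold change was -0.0058 (SE 0.12), with a mean of 66.6 CPM in WT against 66.2 CPM in Zeb2 cKO. By design only cardiomyocytes delete Zeb2 in this tissue. The paper nevertheless reports lower cardiac Zeb2 by qPCR in Zeb2 cKO mice, including after MI. Without WT 2 no such fall was seen here, and the reason was not tested. The level of Zeb2 in these libraries therefore does not bear out the labels. WT 2 stood apart from the other 5 libraries. The summed CPM of 15 macrophage markers was 886 in WT 2 and between 218 and 295 in the others, that of 8 fibroblast markers was 9621 against 1680 to 2327, and that of 9 cardiomyocyte markers was 10849 against 19305 to 24656. The values of every member are therefore given with and without WT 2. In bulk tissue, fewer cells of a type and less RNA per cell cannot be told apart.

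Clec4e was low in every heart and lower in every Zeb2 cKO heart than in any WT heart. It was covered by 16, 31 and 16 counts in WT, or 0.425, 0.706 and 0.417 CPM, and by 8, 6 and 11 counts in Zeb2 cKO, or 0.160, 0.138 and 0.205 CPM. The lowest WT library, at 0.417 CPM, lay well above the highest Zeb2 cKO library, at 0.205 CPM. Group means were 0.516 ± 0.165 CPM in WT and 0.168 ± 0.0339 CPM in Zeb2 cKO (SD, n = 3), a ratio of 0.325, and the fitted log2 fold change was -1.60 (SE 0.36). Over each group the counts add up to 63 in WT (exact Poisson 95% interval 48.4 to 80.6) and to 25 in Zeb2 cKO (16.2 to 36.9), intervals that cover counting error only and not the spread between mice. Without WT 2 the groups still did not overlap and the log2 fold change was -1.30 (SE 0.37). Clec4e reached the level that the filter on low counts asks for (about 0.231 CPM) in 3 WT and 0 Zeb2 cKO libraries, so it entered the analysis through the group in which it was higher.

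Clec4d, which forms a receptor complex with Mincle, was the other gene whose groups did not overlap, though by a narrow margin. It was at 0.451, 2.35 and 0.677 CPM in WT (17, 103 and 26 counts) and at 0.400, 0.0922 and 0.428 CPM in Zeb2 cKO (20, 4 and 23 counts). The high value of WT 2 and the low value of Zeb2 cKO 2 set most of the distance between the groups, and WT 1 lay just above Zeb2 cKO 3. Means were 1.16 ± 1.04 CPM in WT and 0.307 ± 0.186 CPM in Zeb2 cKO (SD, n = 3). The log2 fold change of Clec4d was -1.90 (SE 0.76) with all libraries, -0.84 (SE 0.55) without WT 2 and -1.49 without Zeb2 cKO 2. Of the 9 members, 2 had groups that did not overlap with the lower values in Zeb2 cKO, as had 2.97% of all genes tested. Clec4e, whose p-value chose the set, is 1 of the 2, so nothing is read from that count.

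The remaining FcRγ-coupled receptor, Clec4n, recognises mannose-rich fungal walls. It was at 2.10, 7.36 and 2.71 CPM in WT and at 2.00, 1.98 and 2.12 CPM in Zeb2 cKO, so that WT 1 lay between the Zeb2 cKO libraries and WT 2 far above all of them. Its log2 fold change was -1.0 (SE 0.46), and -0.24 (SE 0.19) without WT 2.

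Clec7a, the β-glucan receptor, was at 2.12, 15.5 and 2.45 CPM in WT and at 2.52, 2.49 and 2.42 CPM in Zeb2 cKO. Apart from WT 2, the libraries lay between 2.12 and 2.52 CPM. The log2 fold change of Clec7a was -1.43 (SE 0.75) with all libraries and 0.12 (SE 0.17) without WT 2. Clec5a, which is known for myeloid activation through Tyrobp, was at 1.01, 3.17 and 2.11 CPM in WT and at 1.62, 1.43 and 1.71 CPM in Zeb2 cKO. The WT values enclosed the Zeb2 cKO values, and the log2 fold change was -0.40 (SE 0.39), or 0.030 (SE 0.31) without WT 2.

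Among the inhibitory receptors and their relatives, WT 2 was again the highest library for each gene. Clec12a was at 1.59, 11.9 and 2.73 CPM in WT and at 2.52, 2.63 and 2.64 CPM in Zeb2 cKO (log2 fold change -1.07, SE 0.69, and 0.27, SE 0.24, without WT 2). Clec4a2 was at 0.637, 4.33 and 1.75 CPM in WT and at 1.04, 1.34 and 1.21 CPM in Zeb2 cKO (-0.91, SE 0.61, and 0.0051, SE 0.40, without WT 2). In both genes WT 1 was the lowest of the 6 libraries and WT 2 the highest. Clec4a3 was at 0.690, 4.90 and 1.48 CPM in WT and at 1.36, 1.01 and 1.60 CPM in Zeb2 cKO (-0.84, SE 0.66, and 0.29, SE 0.36, without WT 2). Clec4a1 was at 1.22, 4.56 and 1.59 CPM in WT and at 1.22, 0.945 and 1.40 CPM in Zeb2 cKO (-1.05, SE 0.51, and -0.24, SE 0.26, without WT 2). Part of the Clec4a2 transcript (21.8% of the longest annotated one) and of the Clec12a transcript (2.66%) matches transcripts of other genes in stretches of at least 75 bases at 95% identity or more, and Clec4a2 overlaps the pseudogene Gm44132 on the same strand, so the counts of Clec4a2 are the least certain of the set. No such stretch was found for the other 7 genes, Clec4e included.

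**Figure D1:**
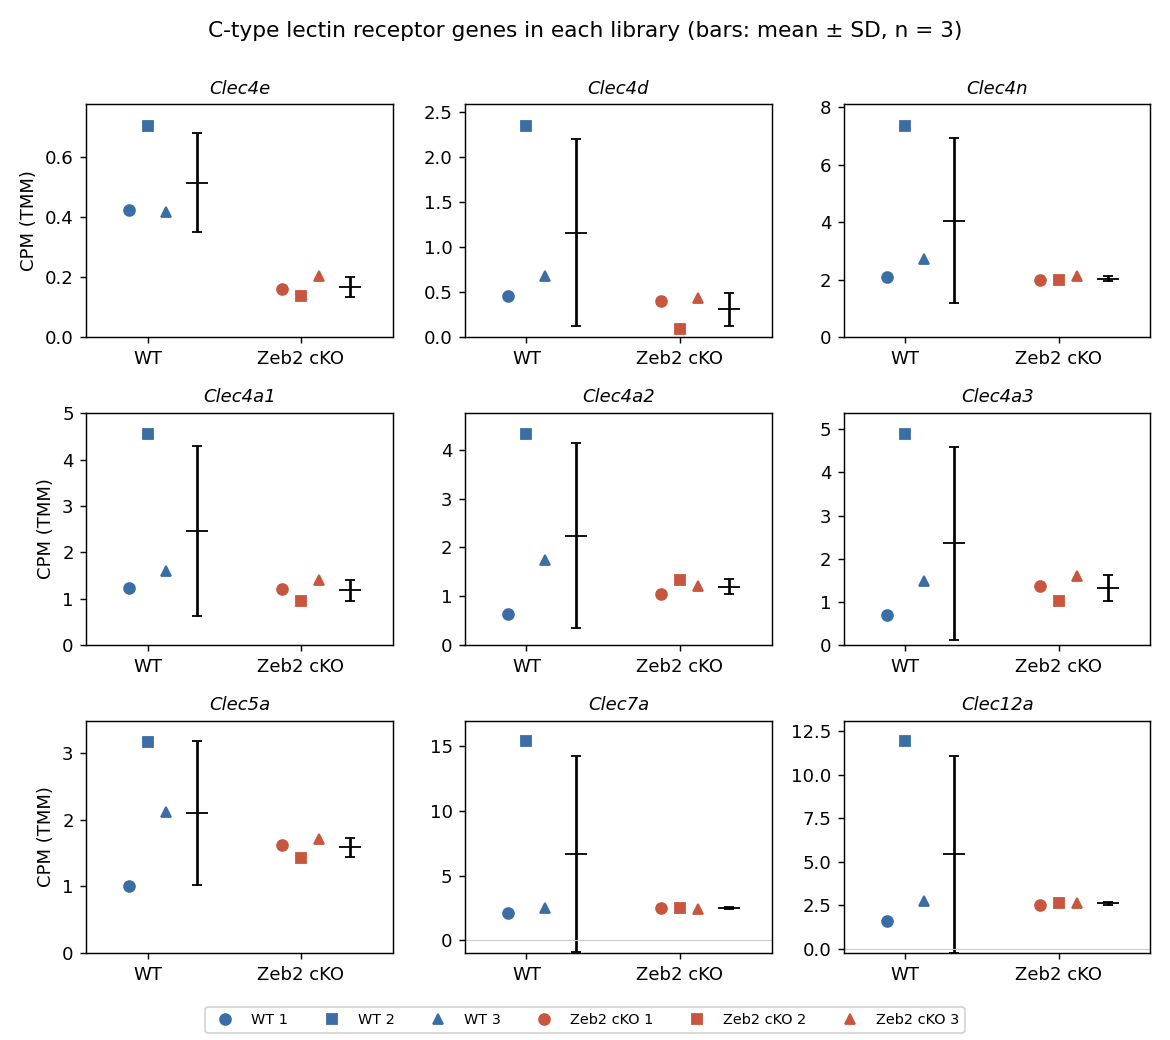
CPM (y axis, TMM-normalised, each panel from 0 or just below it) of the 9 C-type lectin receptor genes in the 3 WT (blue) and 3 Zeb2 cKO (red) libraries, with the mean and SD of each group beside the points. Only Clec4e and Clec4d show groups that do not overlap, and WT 2 (blue square) is the highest library in every panel.

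With all 6 libraries, all 9 genes had a log2 fold change under -0.2, as had 22.6% of all genes tested, and since the fold of Clec4e chose the set, nothing is read from that count. At an adjusted p under 0.05, 0% of all genes tested were called, and no member was (adjusted p = 0.957 for each, edgeR). Without WT 2 the set divided. Clec4e and Clec4d stayed the lowest, Clec4n and Clec4a1 lay at -0.24, and the other 5 genes lay between 0.0051 and 0.29. That left 4 members under -0.2, against 11.7% of all genes tested without WT 2. Clec4e is 1 of these 4, so nothing is read from that count either. The median log2 fold change of the 8 genes other than Clec4e was -1.02 with all libraries and 0.017 without WT 2, where the median of all genes was -0.0069 and 0.0025. Clec4e lay 0.58 below that median of its relatives with all libraries (-0.58) and further below it without WT 2 (-1.32). Leaving out any other library kept each of the 9 genes below 0, and for Clec4e the range over all 6 omissions was -1.77 to -1.30. The plot of fold changes with each library left out shows this for each gene.

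**Figure D2:**
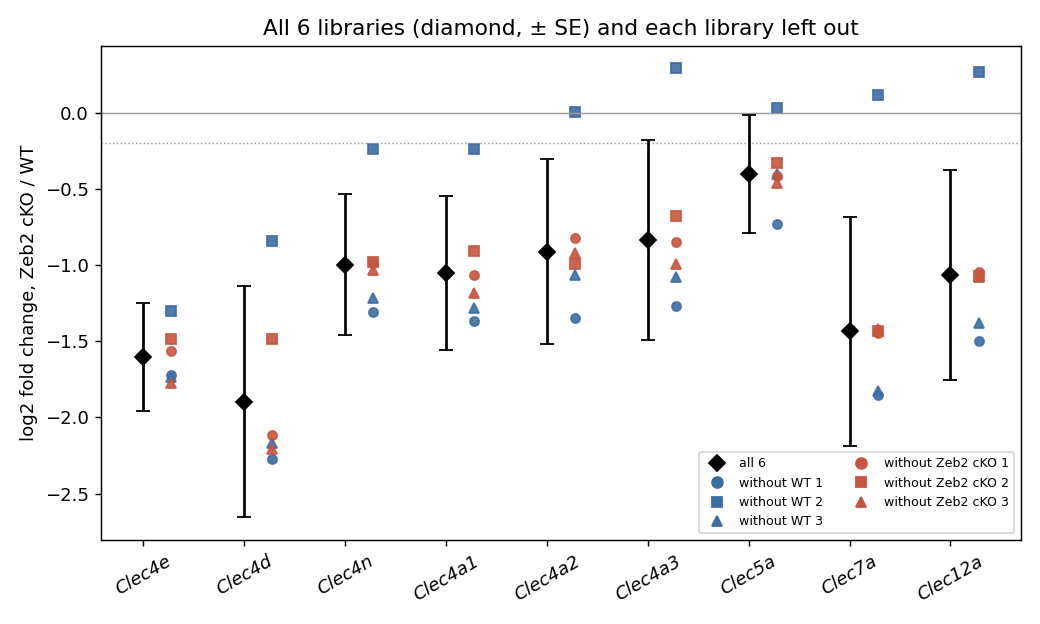
Log2 fold change, Zeb2 cKO over WT (y axis), of each gene from all 6 libraries (black diamond with its standard error) and from the fits that leave out 1 library (coloured symbols, the colour and shape of the library left out). The solid line is 0 and the dotted line -0.2. Leaving out WT 2 (blue square) moves every gene up, to 0 or above for 5 of them. Clec4d moves from -1.90 to -0.84 and Clec4e from -1.60 to -1.30.

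WT 2 exceeded the other WT libraries by unequal factors. Relative to the mean of WT 1 and WT 3, its CPM was 6.76 times as high for Clec7a, 5.51 times for Clec12a, 4.51 times for Clec4a3, 4.16 times for Clec4d, 3.63 times for Clec4a2, 3.24 times for Clec4a1, 3.06 times for Clec4n, 2.03 times for Clec5a and 1.68 times for Clec4e. Clec4e thus had the smallest factor of the 9 in the library with the most macrophage marker RNA, although it was highest there. The summed CPM of the 8 genes other than Clec4e was 9.82, 54.0 and 15.5 in WT and 12.7, 11.9 and 13.5 in Zeb2 cKO. Without WT 2 these sums averaged 12.7 CPM in WT and 12.7 ± 0.808 CPM in Zeb2 cKO (SD, n = 3).

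Shares of counts within a library do not depend on the scaling of the library. Clec4e made up 4.15%, 1.29% and 2.62% of the counts of the 9 genes in WT and 1.25%, 1.15% and 1.49% in Zeb2 cKO. WT 1 and WT 3 lay above all Zeb2 cKO libraries, but WT 2 lay among them, so the groups overlapped (means 2.69 ± 1.43% and 1.29 ± 0.177%, SD, n = 3). With few counts each share is uncertain: exact binomial 95% intervals (Clopper-Pearson) were 2.39% to 6.64% for WT 1, 0.879% to 1.83% for WT 2 and 0.746% to 2.65% for Zeb2 cKO 3, for counting error only. Against 15 macrophage markers the same order appeared, with Clec4e at 0.195%, 0.0796% and 0.141% of the combined counts in WT and at 0.0594%, 0.0519% and 0.0804% in Zeb2 cKO. There too only WT 2 fell within the range of the Zeb2 cKO libraries. On the log2 scale, the ratio of the CPM of Clec4e to the mean CPM of the other 8 genes was -1.53, -3.26 and -2.22 in WT and -3.31, -3.43 and -3.05 in Zeb2 cKO, a difference of -0.93 between group means and of -1.39 without WT 2.

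Clec4d was the only 1 of the 8 genes other than Clec4e whose shares separated the groups. It made up 4.59%, 4.34% and 4.37% of the counts of the 8 genes other than Clec4e in WT and 3.15%, 0.774% and 3.16% in Zeb2 cKO, with WT 2 beside the other WT libraries and no overlap between groups. The intervals of WT 1 (2.70% to 7.25%) and Zeb2 cKO 3 (2.02% to 4.71%) overlapped. Of the counts of Clec4e and Clec4d together, Clec4e held 48.5%, 23.1% and 38.1% in WT and 28.6%, 60.0% and 32.4% in Zeb2 cKO, with overlapping groups. The 8 genes other than Clec4e made up between 4.28% and 5.75% of their own and the macrophage marker counts in all 6 libraries, with overlapping groups.

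**Figure D3:**
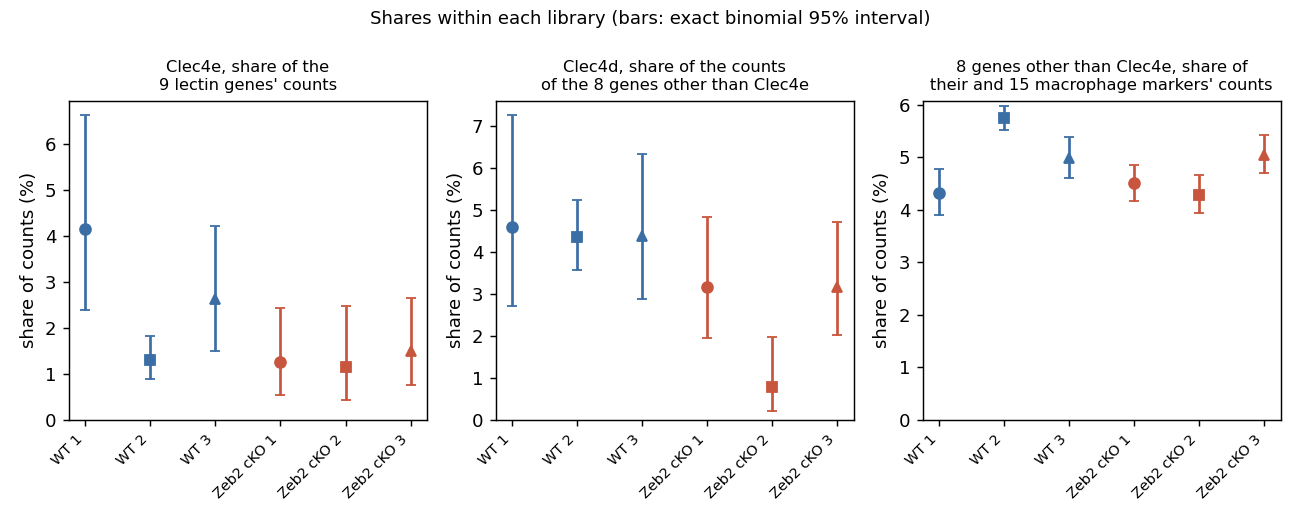
Shares of counts (y axis, %) in each library (x axis), with exact binomial 95% intervals as bars: Clec4e among the 9 genes (left), Clec4d among the 8 genes other than Clec4e (middle), and those 8 genes among their own and 15 macrophage markers' counts (right). WT 2 joins the Zeb2 cKO libraries for Clec4e (1.29%) and the WT libraries for Clec4d (4.34%), and the right panel stays between 4.28% and 5.75%.

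Levels of different genes were compared as CPM per kb of merged exons. By the median over 6 libraries the order was Clec4n (1.49 CPM per kb), Clec4a3 (1.07), Clec7a (0.936), Clec4a1 (0.840), Clec12a (0.477), Clec4a2 (0.435), Clec5a (0.434), Clec4d (0.275) and Clec4e (0.0626). Clec4n was above Clec4a3, Clec4a1 above Clec12a, and Clec4d above Clec4e in 6 of 6 libraries, though Clec4a1 exceeded Clec12a in only 4 libraries when the longest transcript served as the length. Clec4a3 was above Clec7a in 3 libraries, Clec4a2 above Clec5a in 3 and Clec5a above Clec4d in 4, so these neighbours did not differ beyond the spread between libraries. Clec7a exceeded Clec4a1 in 5 libraries, and Clec12a exceeded Clec4a2 in 5. The level of Clec4e was 0.104 ± 0.0332 CPM per kb in WT and 0.0338 ± 0.00683 CPM per kb in Zeb2 cKO (SD, n = 3), so the gene that set the choice of this family was also its scarcest member.

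**Figure D4:**
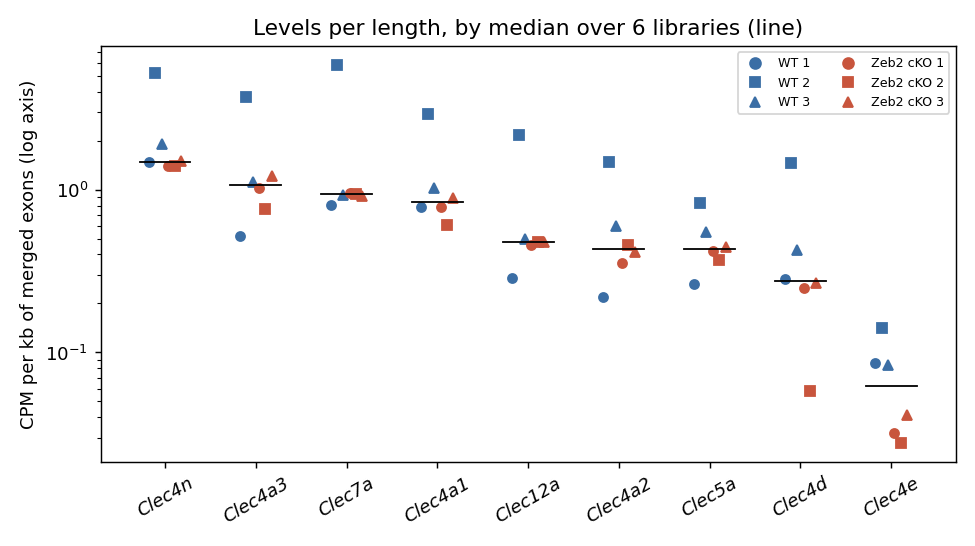
CPM per kb of merged exons (y axis, log scale) of the 9 genes, ordered from left to right by the median over the 6 libraries (black line). Clec4n is the highest at a median of 1.49 and Clec4e the lowest at 0.0626, below Clec4d in every library.

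The pattern of Clec4e across libraries was set beside those of the other members. Pearson's r of log2 CPM over 6 libraries ranged from 0.666 to 0.982 (median 0.909) over the 28 pairs of the 8 genes, and from 0.490 to 0.866 (median 0.607) between Clec4e and each of them, with Clec4d the closest and Clec5a the farthest. These points share library composition. Without WT 2, the median r over the 5 libraries left was 0.583 among the 8 genes and -0.15 between them and Clec4e. With the mean of the macrophage markers, r was 0.652 for Clec4e, 0.738 for Clec4d and between 0.862 and 0.985 for the other 7. The 5 genes most like Clec4e were Taf2 (a subunit of the general transcription factor TFIID, r = 0.995), Gm6030 (a processed pseudogene, whose counts are uncertain, 0.990), Jazf1 (a zinc finger gene, 0.987), Zfp511 (another zinc finger gene, 0.981) and Itpkc (an inositol trisphosphate kinase, 0.976), all with r over 6 libraries. Their groups did not overlap. That is no separate finding, since they were picked for likeness to a gene chosen for its genotype difference. Gm6030 was at 0.531, 0.889 and 0.521 CPM in WT and at 0.240, 0.253 and 0.279 CPM in Zeb2 cKO, whereas the log2 fold changes of the other 4 lay between -0.33 and -0.079. The 5 genes most like the mean of the other 8 members were Alcam (an adhesion molecule of leukocytes and endothelium), Man1a (a mannosidase of the Golgi), Nrg1 (the growth factor neuregulin), Ctsa (a lysosomal protease) and Crip1 (a LIM domain protein), with r from 0.998 to 0.999 and overlapping groups. An r over 0.9 was reached by 103 genes for Clec4e and by 1854 genes for the mean of the other 8. Clec4e rests on few counts, which alone lowers r, and WT 2 dominates the pattern of the other 8. The lower r values of Clec4e and its fewer genes over 0.9 therefore do not show a pattern of its own.

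Markers of the cells that could carry these receptors were set beside them, and macrophage and monocyte markers were highest in WT 2 as summed CPM. Of 15 macrophage markers, 13 had a log2 fold change under -0.2 and 1 over 0.2, with a median of -0.82. Of all genes tested, 22.6% were under -0.2 and 15.9% over 0.2. Without WT 2 the median of the macrophage markers was -0.0043, with 0 of them under -0.2 and 1 over 0.2. Their summed CPM was 218, 886 and 295 in WT and 269, 266 and 254 in Zeb2 cKO, so the macrophage markers of WT 1 were below and those of WT 3 above all Zeb2 cKO libraries, while Clec4e was higher in both. Neutrophil markers were scarce in all libraries: 4 of 13 passed the filter, their summed CPM was 2.36, 5.76 and 3.67 in WT and 3.10, 1.87 and 3.13 in Zeb2 cKO, Elane had 0 counts in every library and Ly6g was above 0 in WT 3 alone (0.026 CPM). The median of the 4 was -0.75, and it stayed at -0.44 without WT 2. S100a8 was at 0.398, 0.319 and 0.625 CPM in WT and at 0.260, 0.0922 and 0.409 CPM in Zeb2 cKO, and S100a9 at 0.292, 0.706 and 1.12 CPM in WT and at 0.420, 0.161 and 0.540 CPM in Zeb2 cKO. Both were highest in WT 3, with overlapping groups and log2 fold changes of -0.78 and -0.90, or -0.97 and -0.89 without WT 2. Csf3r (-0.73, and 0.0078 without WT 2) and Mmp9 (0.90, and 1.13 without WT 2) completed the 4. Of 8 monocyte markers 6 passed the filter, with a median of -1.01 and of 0.055 without WT 2, and Ly6c2 was at most at 0.479 CPM. Of 9 dendritic cell markers 4 passed the filter, with a median of -0.55 and of 0.47 without WT 2. With all libraries, that median also moved to 0.030 without mitochondrial genes and to -1.07 without the filter. The part that these cells have in the lower Clec4e of the Zeb2 cKO libraries was not tested.

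Genes around the receptors were taken from lists and tested with edgeR in the fit across all genes, and 0 genes of any list passed an adjusted p under 0.05. Of 16 adaptors and proximal signalling genes 15 passed the filter on low counts, 11 had a log2 fold change under -0.2 and 0 over 0.2 (median -0.33, and -0.0052 without WT 2). Without WT 2 only 2 were under -0.2 and 0 over 0.2. Of all genes tested, 22.6% were under -0.2 with all libraries and 11.7% without WT 2. Fcer1g, the FcRγ adaptor shared by Clec4e, Clec4d and Clec4n, was at 3.53, 17.3 and 4.66 CPM in WT and at 4.78, 4.84 and 4.39 CPM in Zeb2 cKO, a log2 fold change of -0.87 (SE 0.57), or 0.19 without WT 2. Its log2 fold change thus changed sign without WT 2, as did those of 5 of the receptors but not that of Clec4e. The smallest p-values of this list belonged to Plcg2, a phospholipase downstream of Syk (-0.33, SE 0.16, adjusted p = 0.957, and -0.25 without WT 2), and to Tyrobp, the adaptor of Clec5a (-1.13, SE 0.60, adjusted p = 0.957, and -0.0052 without WT 2). No gene of the list lay above 0 with all 6 libraries, but without WT 2 Fcer1g, Fgr (0.16) and Bcl10 (0.11) were among those that did. Syk was at -0.31 (SE 0.16, and -0.24 without WT 2) and Card9 at -0.40 (SE 0.34, and 0.025 without WT 2). Among 3 phosphatases that serve inhibitory receptors, Ptpn6 was at -0.73 (SE 0.46), Inpp5d at -0.41 (SE 0.27) and Ptpn11 at 0.018 (SE 0.20), and without WT 2 they were at 0.020, -0.026 and -0.16.

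Further downstream, 10 NF-κB subunits and regulators had a median log2 fold change of -0.11, with 4 under -0.2 and 0 over 0.2. Without WT 2 the median was -0.012, with 1 under -0.2 and 0 over 0.2. Nfkbia, the inhibitor that NF-κB itself induces, was at 11.3, 10.8 and 9.24 CPM in WT and at 7.41, 8.90 and 8.90 CPM in Zeb2 cKO, groups that did not overlap (-0.31, SE 0.14, adjusted p = 0.957, edgeR, and -0.28 without WT 2). Nfkb1 was at -0.25 (SE 0.18), and the highest of the list were Nfkb2 at 0.13 (SE 0.13) and Ikbkg at 0.12 (SE 0.15), while without WT 2 these were at -0.022, 0.055 and 0.0065. Of 18 inflammatory genes that such receptors can induce, 9 passed the filter, 6 of them under -0.2 and 2 over 0.2, and Csf3 had 0 counts in every library. Leaving out WT 2 gave 4 under -0.2 and 3 over 0.2, and moved the median from -0.48 to -0.11. Il1rn, the interleukin-1 receptor antagonist, was at 0.504, 1.23 and 0.286 CPM in WT and at 0.280, 0.115 and 0.186 CPM in Zeb2 cKO (-1.78, SE 0.61, adjusted p = 0.957, edgeR, and -1.0 without WT 2). Its groups did not overlap, by a margin of 0.286 against 0.280 CPM. Il6 was at 0.372, 1.39 and 0.391 CPM in WT and at 0.220, 0.161 and 0.372 CPM in Zeb2 cKO (-1.50, SE 0.62, adjusted p = 0.957, and -0.57 without WT 2). Tnf (0.32, SE 0.30, and 0.49 without WT 2) and Nos2 (0.23, SE 0.41, and -0.11 without WT 2) had overlapping groups. Among 10 transcription factors of myeloid and inflammatory gene expression, 8 had a log2 fold change under -0.2 and 0 over 0.2 (median -0.54, and -0.095 without WT 2). The counts without WT 2 were 4 under -0.2 and 1 over 0.2. Junb, an AP-1 subunit, was at 11.6, 7.31 and 9.22 CPM in WT and at 5.90, 7.05 and 6.07 CPM in Zeb2 cKO, without overlap (-0.57, SE 0.19, adjusted p = 0.957, edgeR, and -0.72 without WT 2), and its highest value was in WT 1 and not in WT 2. Atf3, a stress-induced factor, had its highest value in WT 1 (-0.52, SE 0.29, and -0.58 without WT 2), and Cebpb, whose product binds C/EBP motifs, was at -0.33 (SE 0.28, and -0.42 without WT 2).

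The other C-type lectin genes had log2 fold changes on both sides of 0. Of 41 such genes 22 passed the filter, 10 with a log2 fold change under -0.2 and 5 over 0.2, and their median was -0.14, or 0.11 without WT 2. Leaving out WT 2 turned the balance, with 1 under -0.2 and 7 over 0.2. Clec11a, a secreted growth factor (-1.55, SE 0.83, and 0.15 without WT 2), and Selp, the P-selectin of endothelium and platelets (-1.37, SE 0.59, and -0.53 without WT 2), had the smallest p-values among the lower genes, both with an adjusted p of 0.957 (edgeR). Ly75, an endocytic receptor of dendritic cells, was at 0.876, 1.05 and 0.911 CPM in WT and at 1.66, 1.27 and 1.02 CPM in Zeb2 cKO (0.47, SE 0.25, and 0.56 without WT 2), and Colec11, a soluble collectin, had a log2 fold change of 0.26 (SE 0.22, and 0.13 without WT 2). Mrc1, the mannose receptor of tissue macrophages, was at 36.9, 89.7 and 50.9 CPM in WT and at 52.8, 52.2 and 48.3 CPM in Zeb2 cKO, with a log2 fold change of -0.21 (SE 0.31), or 0.22 without WT 2. Clec4b1, next of kin to the Clec4a genes, was under the filter with at most 0.638 CPM, and Clec4b2 had 0 counts in every library.

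**Figure D5:**
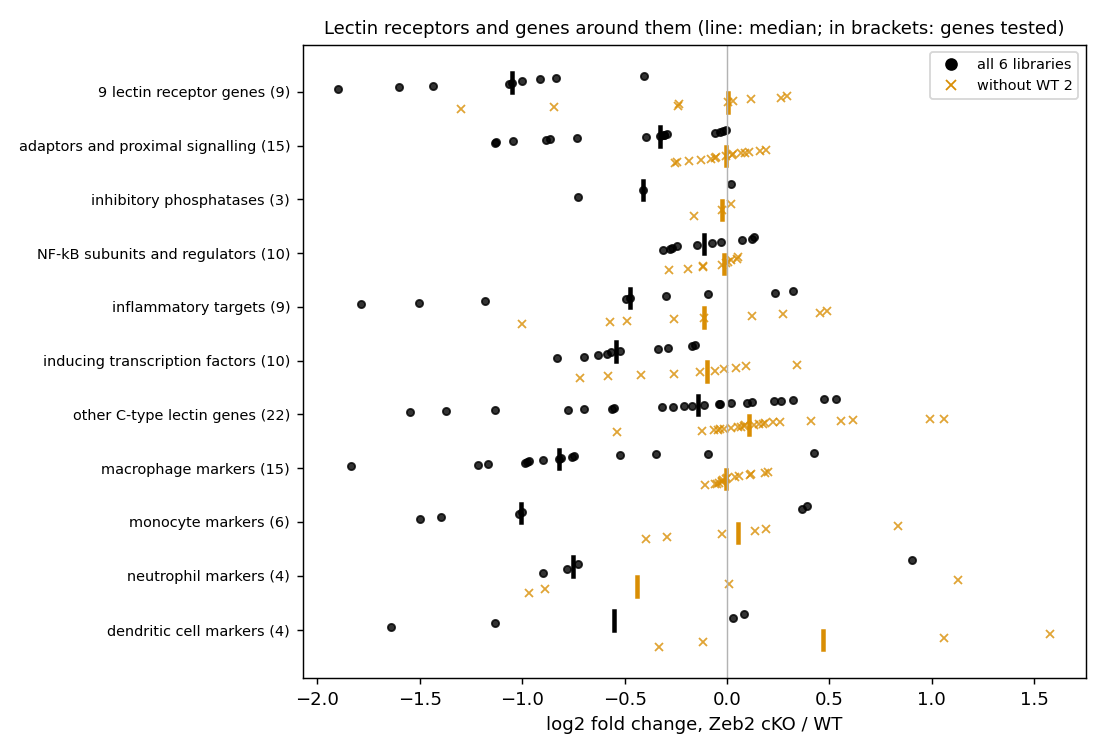
Log2 fold changes, Zeb2 cKO over WT (x axis), of the 9 receptors and of the tested genes of 10 lists (y axis, with the number tested), from all 6 libraries (black points) and without WT 2 (orange crosses), with vertical lines at the medians. Without WT 2 the medians of 8 lists lie between -0.11 and 0.11, that of the neutrophil markers lies at -0.44 and that of the dendritic cell markers at 0.47, and Clec4e and Clec4d lie at -1.30 and -0.84.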

How the data were processed

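RNA-seq was available for heart tissue of 3 WT and 3 Zeb2 cKO mice, grouped by the sample labels. The authors prepared stranded libraries from RNA depleted of ribosomal RNA, aligned the reads and quantified them on the Gencode M4 annotation (GRCm38) with the STAR workflow, and deposited 1 table of raw counts per gene. The STAR version, the strand option and the handling of multimapping reads are not given in the sources used here. The submitters' processing notes name DESeq 1.2, which was not used. Each count column was matched to 1 sample, with 0 left over. Nothing states that replicates came from separate litters or days, so p-values measure the spread between these samples.

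From these counts, symbols and positions were taken from Gencode M21 (GRCm38) by gene identifier (a symbol was found for 14573 of 14746 genes kept). Counts were normalised with TMM in edgeR 4.0.16 (R 4.3.3), filtered with filterByExpr defaults and tested with glmQLFTest, with Benjamini-Hochberg adjustment over all genes kept and a prior count of 0.125. Standard errors were derived from the quasi-likelihood F statistic. Likeness used log2 CPM with a prior count of 2. CPM refers to all counts, mitochondrially encoded genes included. Shared sequence was searched with BLAST 2.17.0. Intervals are exact and cover counting error only. Clec4e rests on 6 to 31 counts per library, and for more abundant genes precision is limited by the variation among mice. The edgeR fit was checked on simulated counts.

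The members and lists were chosen with earlier results of these data known. Named genes are the 9 members, Zeb2, in each list the 2 genes in each direction with the smallest p-value (not all are printed), and the 5 genes most like Clec4e or the other members. Fcer1g, Fgr, Bcl10, Syk, Card9, Cebpb, Mrc1, Clec4b1 and the neutrophil genes were added after their values were seen. DESeq2 1.42.0, other normalisations, filters and covariates, a replicate block and the omission of each library were run as alternatives, and another gene length was added after the data were seen.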

Additional observations from a re-analysis of the deposited data

How the results depend on the processing

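Of 126 recalculated log2 fold changes of the 9 genes, 116 kept their sign and 10 reversed. The reversals came without WT 2 (Clec4a2 0.0051, Clec4a3 0.29, Clec5a 0.030, Clec7a 0.12, Clec12a 0.27) and with the macrophage covariate (0.080, 0.31, 0.071, 0.018 and 0.25 in the same order), whereas the lowest values of these 5 genes, without WT 1, were -1.35, -1.27, -0.73, -1.85 and -1.50. In both, 4 members stayed under -0.2 in place of 9. The median of the 8 genes other than Clec4e moved from -1.02 to 0.017 without WT 2 and 0.044 with the covariate, and Clec4e minus that median moved from -0.58 to -1.32 and -1.38. Over the omission of each library, Clec4e ranged from -1.77 to -1.30, the median of the others from -1.36 to 0.017, Clec4e minus that median from -1.32 to -0.36, the members under -0.2 from 4 to 9, the difference of the log2 ratios of Clec4e from -1.39 to -0.52 against the other 8 genes and from -1.40 to -0.75 against the macrophage markers, and 0 genes were called. Changes of the normalisation, filter, test, block, prior count or mitochondrial genes left the log2 fold change of Clec4e between -1.62 and -1.40. With the longest transcript as the length the order of median levels per kb was the same, but Clec4a1 was above Clec12a in 4 libraries in place of 6.

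At an adjusted p under 0.05 edgeR called 0 genes (127 lower and 153 higher at an unadjusted p under 0.05), and DESeq2 called 0 lower and 2 higher, Slc46a2 and Mrap2, neither of them a member. Replicate numbers 1, 2 and 3 occur in both groups but do not pair the animals. Deviations from the group means of libraries with the same number correlated at 0.088, -0.14 and -0.087, and 0 libraries correlated best with their own number. With a replicate block the log2 fold change of Clec4e was -1.57 (adjusted p = 0.999, edgeR) and 0 genes were called. The block moved the other members more. The median of the 8 genes other than Clec4e went from -1.02 to -0.67, and Clec4e minus that median from -0.58 to -0.89. Depth limits Clec4e, with 6 to 11 counts in each Zeb2 cKO library, and Clec4d, with 4 counts in Zeb2 cKO 2.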
